A study of Mus musculus with 2 samples.

Results

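The genes described here encode splicing factors and related RNA-binding regulators of mouse CD4+ T cells: SR proteins and their relatives Tra2a and Tra2b, hnRNP proteins, the Ptbp, Mbnl and Celf regulators, the SF3a and SF3b subunits of the U2 particle, and the numbered Rbm proteins. They were chosen by symbol, as every protein-coding gene of the annotation whose name starts with Srsf, Tra2, Hnrnp, Ptbp, Mbnl, Celf, Sf3a or Sf3b, or with Rbm followed by a digit. This rule gave 93 of 55450 annotated genes. A splice junction is the joint that a sequencing read shows between 2 exons, and 72 of the 93 genes had at least 1 junction that could be named; 67 had at least 20 junction reads over both libraries and are called measured.

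The stimulated library came from splenic CD4+ T cells kept for 4 h on plates coated with anti-CD3e and anti-CD28, each at 2 ug/ml, which engage the T cell receptor and its costimulator. The mice were male and of strain C57BL/6JJcl. The mock library came from cells handled alike without antibody. CD4+ cells were enriched with a magnetic kit from the pooled spleens of 4 mice, and the study's title names early activation as its subject. There was 1 library per condition, so no difference below has a replicate check, intervals cover counting error only, and a change in the mix of cells cannot be told apart from a change in RNA per cell.

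The stimulated library held 1341197 junction reads on 97395 junctions and the mock library 1147232 reads on 97850 junctions. Over all 7234 measured genes the median log2 ratio of stimulated to mock reads, each per 1000000 junction reads of its library (RPM), was -0.20. Another scaling, the trimmed mean of M values (TMM), has a factor of -0.24 on the log2 scale, which raises every log2 ratio by that amount. T cell markers were read in both libraries, with 5160 reads (3847 RPM) over 8 genes in the stimulated library and 5088 (4435 RPM) in the mock library. Their median log2 ratio was -0.75, with 6 genes below 0 and 2 above. Cd4 itself fell to 285 reads in the stimulated library, against 650 in the mock library. Cd247 fell to 350, against 955 in the mock library, while Cd5 and Lck had ratios of 1.95 and 1.31. Of other lineages, 9 B cell markers had 171 reads in the stimulated library and 200 in the mock library, 8 CD8 and NK cell markers had 45 in the stimulated library and 26 in the mock library, and 10 myeloid markers had 85 in the stimulated library and 102 in the mock library. Among the CD8 and NK cell markers Cd8a was at 0 in both libraries, Cd8b1 fell to 5 reads in the stimulated library, against 16 in the mock library, and Eomes rose to 36 in the stimulated library, against 7 in the mock library. The myeloid markers did not move together. Mpo had 45 reads in each library, and Cybb rose to 19 in the stimulated library, against 5 in the mock library. Lyz2 had 0 reads in the stimulated library and 15 in the mock library, Itgam 1 and 10, and Flt3 0 and 8. The part of these other lineages in the results was not tested.

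SR proteins bind exonic enhancers and promote the use of nearby splice sites, whereas many hnRNP proteins bind silencers and favour skipping. Several of these genes carry a poison exon, an exon with an early stop codon whose inclusion sends the transcript to nonsense-mediated decay, and their proteins can promote inclusion of their own poison exons, which limits their own level. In T cells Hnrnpll is known for its part in the switch of Cd45 isoforms on activation, and Celf2 for splicing changes after receptor signals.

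The 7 poison exons below are shown because the junctions beside them carry the non-productive reads described later, each from the first base of the exon to the stop codon, which is in capitals. The letters are those of GENCODE M21 transcripts, on GRCm38; the positions are those of the matched junctions in mm9, and the text reads 5′ to 3′ on the strand of the gene. The first base of the stop codon lay between base 26 and base 150 of the exon. The stop codon was TGA in 4 exons, TAG in 2 and TAA in 1, and the exons of Tra2a and Tra2b started with the same 9 bases.
Srsf7, 460 bases, chr17:80603962-80604421, minus strand: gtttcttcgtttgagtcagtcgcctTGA
Srsf6, 268 bases, chr2:162758551-162758818, plus strand: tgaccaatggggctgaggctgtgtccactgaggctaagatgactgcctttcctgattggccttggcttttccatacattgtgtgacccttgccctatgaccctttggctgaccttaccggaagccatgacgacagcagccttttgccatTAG
Srsf3, 456 bases, chr17:29176399-29176854, plus strand: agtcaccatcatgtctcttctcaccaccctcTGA
Tra2a, 306 bases, chr6:49202802-49203107, minus strand: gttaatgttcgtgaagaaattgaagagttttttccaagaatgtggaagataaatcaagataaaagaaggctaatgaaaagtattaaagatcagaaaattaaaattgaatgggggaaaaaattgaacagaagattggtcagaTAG
Tra2b, 276 bases, chr16:22259059-22259334, minus strand: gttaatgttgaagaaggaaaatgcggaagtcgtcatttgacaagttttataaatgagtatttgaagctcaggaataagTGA
Hnrnpl, 70 bases, chr7:29602354-29602423, plus strand: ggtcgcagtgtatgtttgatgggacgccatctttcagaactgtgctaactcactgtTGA
Rbm39, 73 bases, chr2:156004616-156004688, minus strand: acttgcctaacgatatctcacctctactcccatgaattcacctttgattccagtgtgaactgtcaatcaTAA

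Most of the measured splicing-factor genes had more junction RPM in the stimulated library. A measured gene was called higher or lower when its ratio reached 2, or the inverse of 2, and its exact 95% interval did not include 1. By this rule 16 of the 67 measured genes were higher, beside 17.3% of all measured genes, and 2 were lower, beside 25.2%. The median log2 ratio of the 67 genes was 0.46, and 48 of them were above 0, beside 43.1% of all measured genes. With TMM scaling, 26 of the 67 genes were higher, beside 21.6% of all measured genes, and 1 was lower, beside 19.7%. Together the splicing-factor genes held 30437 reads in the stimulated library, 2.27% of its junction reads, and 21719 reads in the mock library, 1.89% of its reads.

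**Figure D1:**
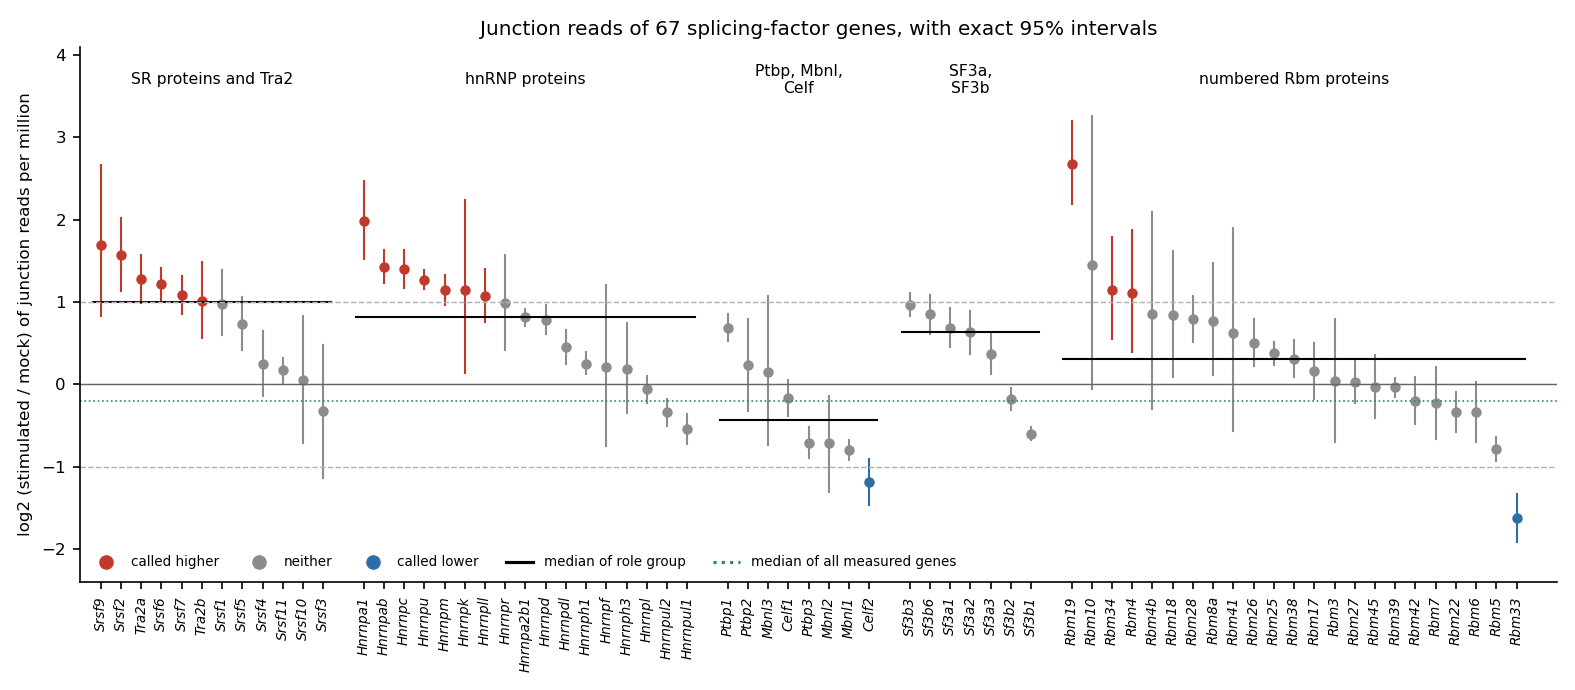
Log2 ratio of stimulated to mock RPM for the 67 measured genes, ordered within 5 role groups, with exact 95% intervals as vertical lines. Red points are genes called higher and blue points genes called lower; dashed lines mark a ratio of 2 and its inverse. Black bars mark the medians of the groups, highest at 1.0 for the SR proteins and Tra2 and lowest at -0.44 for the Ptbp, Mbnl and Celf regulators, and the dotted line marks the median of all measured genes at -0.20.

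Not every gene could be read equally well. Many of these genes have spliced copies elsewhere in the genome, mostly processed pseudogenes and paralogues, in which a read across an exon joint can be placed without a splice. Of the annotated coding introns of the measured genes, 179 had such a copy, counted as at least 46 matching bases in the 50 around the joint, and 58.7% of these were seen, against 83.3% of the 771 introns without a copy. In 14 measured genes at least as many coding introns had a copy as had none; they include Hnrnpa1, Hnrnpk, Ptbp1, Srsf3, Srsf5, Srsf10 and Tra2b, and their values are uncertain. Among the 39 measured genes without any copied coding intron, 10 were higher, beside 17.3% of all measured genes, and 2 were lower, beside 25.2%. Their median log2 ratio was 0.31.

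The SR proteins and Tra2 showed the highest median of the groups. Of 13 genes 12 were measured, Srsf12 having no named junction. Of these 6 were higher, beside 17.3% of all measured genes, and none was lower, beside 25.2%. The median log2 ratio was 1.0. Srsf2, an SR protein known to regulate its own transcript, had 194 reads (145 RPM) in the stimulated library and 56 reads (48.8 RPM) in the mock library, a ratio of 2.96 (95% interval 2.19 to 4.06). Srsf9, a small member of the family, rose to 53 reads in the stimulated library, against 14 in the mock library, a ratio of 3.24 (1.77 to 6.32). It is the gene of the group with the highest ratio, on few reads, and on its most-read junction alone (20 reads in the stimulated library, 7 in the mock library) the log2 ratio was 1.29 and no longer called.

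Srsf6 was the higher gene with the most reads in the group. It had 771 reads in the stimulated library and 284 in the mock library, a ratio of 2.32 (2.02 to 2.67). All 6 of its junctions with at least 10 reads had a ratio above 1, the lowest being 1.77, although its most-read junction alone missed the 2-fold limit with a log2 ratio of 0.82. Srsf7, an SR protein with a zinc knuckle, had 507 reads in the stimulated library and 205 in the mock library, a ratio of 2.12 (1.80 to 2.50).

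Tra2a, an SR-related enhancer protein first known from fly sex determination, rose to 373 reads in the stimulated library, against 132 in the mock library, a ratio of 2.42 (1.98 to 2.97). All 8 of its junctions with at least 10 reads had a ratio above 1, between 1.32 and 7.13. Its paralogue Tra2b had 137 reads in the stimulated library and 58 in the mock library, a ratio of 2.02 (1.48 to 2.80). That call rests on reads into the poison exon: 7 of 8 coding introns of Tra2b had a copy elsewhere, and its junctions of protein-coding transcripts had 11 reads in the stimulated library and 17 in the mock library, a log2 ratio of -0.85.

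The other SR genes were called neither higher nor lower. Srsf1, a general enhancer-binding splicing factor, lay just under the limit with 180 reads in the stimulated library and 78 in the mock library, a ratio of 1.97 (1.51 to 2.61). Srsf5 had 247 reads in the stimulated library and 127 in the mock library, a ratio of 1.66 (1.34 to 2.08). Srsf11, which has the most reads of the group, had 834 reads in the stimulated library and 634 in the mock library, a ratio of 1.13 (1.01 to 1.25). Srsf3, the smallest SR protein, had the lowest ratio, 0.796 (0.454 to 1.39) on 27 reads in the stimulated library and 29 in the mock library, and 4 of its 5 coding introns had a copy.

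**Figure D2:**
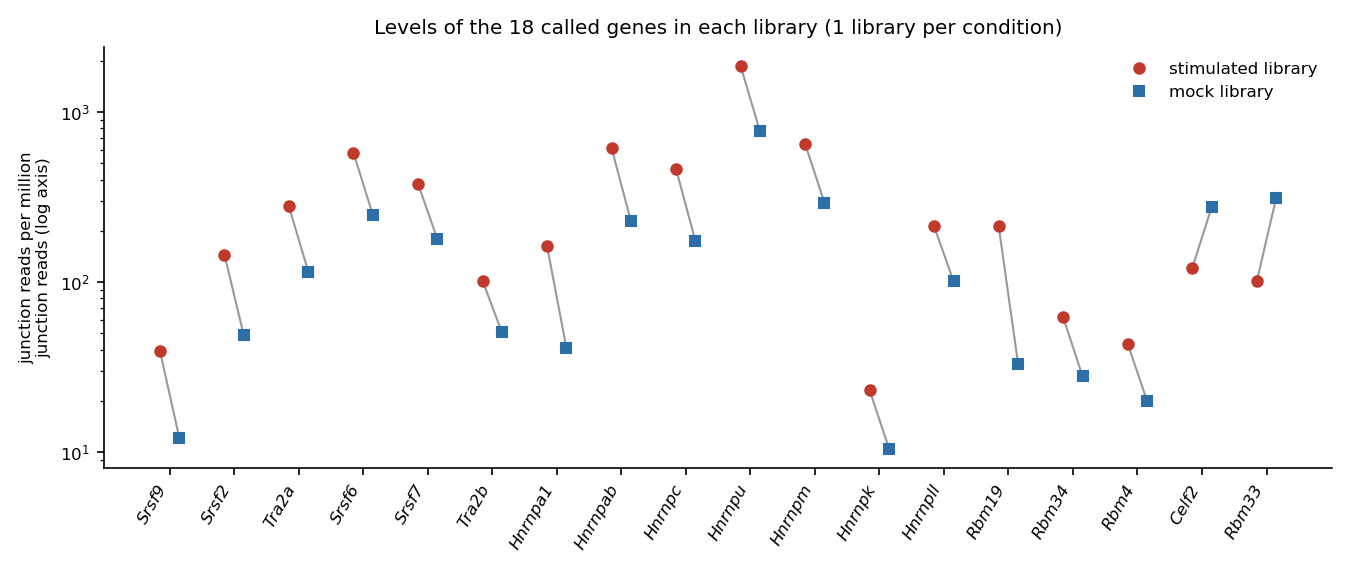
RPM (junction reads per 1000000 junction reads), on a log axis, of the 18 called genes in the stimulated library (red circles) and the mock library (blue squares), with 1 library per condition. The 16 genes on the left were higher in the stimulated library, and Celf2 and Rbm33 on the right were lower, at 121 and 101 RPM in the stimulated library against 275 and 312 in the mock library.

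The SR genes differed in how their productive and non-productive junctions moved. A junction is called non-productive where the annotation holds it only in transcripts that are not protein-coding. Over the group the decay-type junctions had 326 reads in the stimulated library and 177 in the mock library, a ratio of 1.58 (1.31 to 1.90), beside 1.74 (1.64 to 1.85) for the junctions of protein-coding transcripts. Of the decay-type reads of the group, 126 in the stimulated library and 41 in the mock library came from Tra2b. Over all protein-coding genes the decay-type junctions had a ratio of 0.883 (0.845 to 0.923), beside 1.01 for the junctions of protein-coding transcripts. In both sets the decay-type ratio was the lower one, though in the SR group the intervals overlap. Over all splicing-factor genes it was the higher one, 1.57 (1.39 to 1.77) beside 1.19 (1.17 to 1.21). The hnRNP group had 2.61 (2.06 to 3.34) beside 1.60 (1.55 to 1.65). Of its 281 stimulated and 92 mock decay-type reads, 212 and 45 lay on 1 junction of Hnrnpa1. In the remaining role groups the decay-type ratio was lower, on few reads or with intervals that overlap.

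In Srsf1 the productive and the non-productive reads went opposite ways. Its only non-productive junction seen is an intron of 881 bases (chr11:87863598-87864478, plus strand) that starts 80 bases after the stop codon. It fell to 8 reads in the stimulated library, against 23 in the mock library, 3.36-fold lower with a ratio of 0.298 (0.115 to 0.689). The 3 productive junctions rose to 172 reads in the stimulated library, against 55 in the mock library, a ratio of 2.68 (1.96 to 3.69). The non-productive share was 4.44% (1.94 to 8.57) in the stimulated library and 29.5% (19.7 to 40.9) in the mock library. A share was counted as different at 5 points or more, with intervals that do not overlap and at least 20 reads per library. Srsf1 was the 1 gene of 40 measured for the share that was lower, beside 0.418% of all protein-coding genes.

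The reverse was counted in 1 gene, Tra2b, with 92.0% of its reads non-productive in the stimulated library and 70.7% in the mock library, beside 0.167% of all protein-coding genes. Its copied coding junctions make both shares uncertain. The junction into the Tra2b poison exon had 108 reads in the stimulated library and 36 in the mock library, a ratio of 2.57 (1.75 to 3.85). The junction out of the 276-base exon had only 10 reads in the stimulated library and 3 in the mock library.

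In Srsf6 and Tra2a the poison and the productive junctions rose together. The junction out of the Srsf6 poison exon had 53 reads in the stimulated library and 13 in the mock library, a ratio of 3.49 (1.88 to 6.97), and its productive junctions a ratio of 2.27 (1.97 to 2.62). The Tra2a junction into the poison exon had 33 reads in the stimulated library and 7 in the mock library, a ratio of 4.03 (1.75 to 10.8), and the productive junctions a ratio of 2.33 (1.89 to 2.88). The intervals of the poison and the productive ratios overlap in both genes. The reads lay mostly on 1 side of each poison exon. The junction into the Srsf6 exon, also annotated in protein-coding transcripts, had 8 reads in the stimulated library and 0 in the mock library. The junction out of the Tra2a exon had 0 reads in both libraries. The poison share of all reads of the gene was 6.87% in the stimulated library and 4.58% in the mock library for Srsf6. For Tra2a it was 8.85% in the stimulated library and 5.30% in the mock library. Neither difference was counted. Inclusion of the exon against its skipping junction went the other way in both genes, with intervals that overlap. It was 45.6% (33.5 to 58.1) in the stimulated library and 53.8% (25.1 to 80.8) in the mock library for Srsf6. For Tra2a inclusion was 40.5% (25.6 to 56.7) in the stimulated library and 57.1% (18.4 to 90.1) in the mock library. The mock reads were below the minimum for both exons.

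Srsf7 was between these patterns. Its productive junctions rose to 488 reads in the stimulated library, against 187 in the mock library, a ratio of 2.23 (1.88 to 2.66). Its 2 poison junctions had 19 reads in the stimulated library and 18 in the mock library, a ratio of 0.903 (0.449 to 1.82). The junction that skips the poison exon, 874 bases long, had 12 reads in the stimulated library and 0 in the mock library, where 3 reads would be 2.61 RPM. Inclusion of the exon came to 45.5% (24.4 to 67.8) in the stimulated library and 100% (66.4 to 100) in the mock library, on 18 mock reads, below the minimum of 20.

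**Figure D3:**
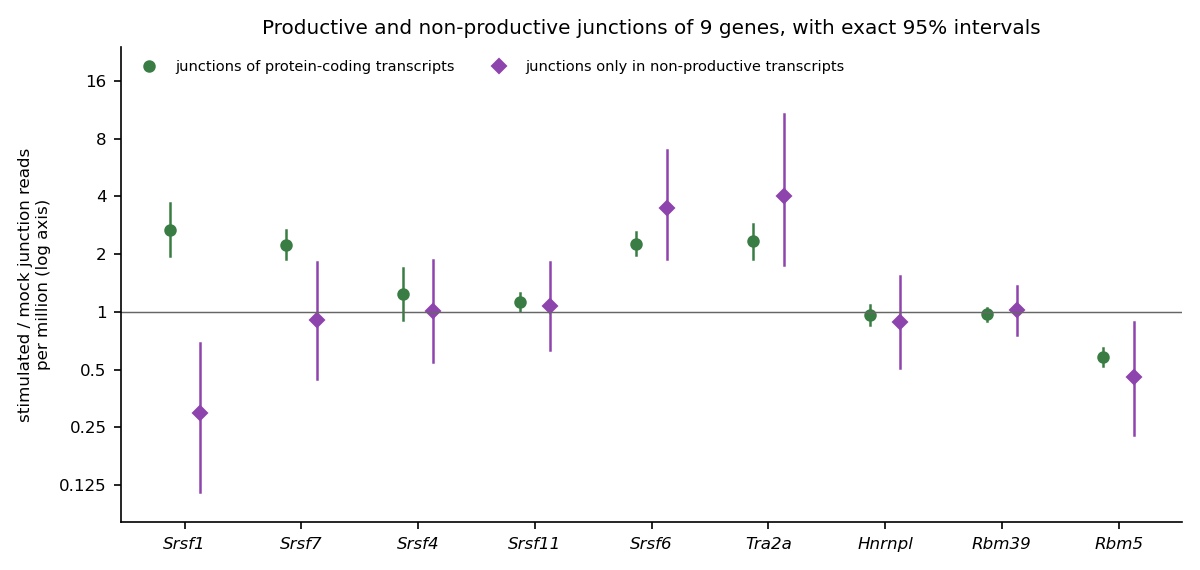
Ratio of stimulated to mock RPM, on a log axis, for the junctions of protein-coding transcripts (green circles) and those only in non-productive transcripts (purple diamonds) of 9 genes, with exact 95% intervals as vertical lines. The pairs are far apart in Srsf1 (2.68 against 0.298), side by side in Hnrnpl and Rbm39, and both above 1 in Srsf6 and Tra2a.

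For other SR genes the interval of the non-productive ratio included 1. Srsf4, whose poison exons lie within an intron of 17336 bases, had 26 non-productive reads in the stimulated library and 22 in the mock library, a ratio of 1.01 (0.551 to 1.87). Srsf3 had 27 reads at its poison exon in each library and Srsf11 35 reads in the stimulated library and 28 in the mock library. The junction that skips the Srsf3 poison exon had a copy and no reads, so inclusion of that exon cannot be read.

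Srsf2 has no non-productive junction by this rule, because the annotation lists its introns after the stop codon in protein-coding transcripts. Its junctions moved unequally. The coding intron of 236 bases had 33 reads in the stimulated library and 5 in the mock library, a ratio of 5.65. An intron of 1059 bases that starts 7 bases after the stop codon had 112 reads in the stimulated library and 12 in the mock library, a ratio of 7.98. A second intron after the stop codon, 502 bases long, had 33 reads in the stimulated library and 30 in the mock library, a ratio of 0.941. The 1059-base intron skips a 104-base exon, so its 112 and 12 reads are also the skipping reads of that exon. The inclusion junctions of the exon had 5 and 11 reads in the stimulated library and 2 and 7 in the mock library. Inclusion of the exon was 6.67% (2.92 to 12.7) in the stimulated library and 29.4% (10.3 to 56.0) in the mock library, with intervals that overlap. Without its most-read junction the gene had a log2 ratio of 0.67 and was no longer called.

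**Figure D4:**
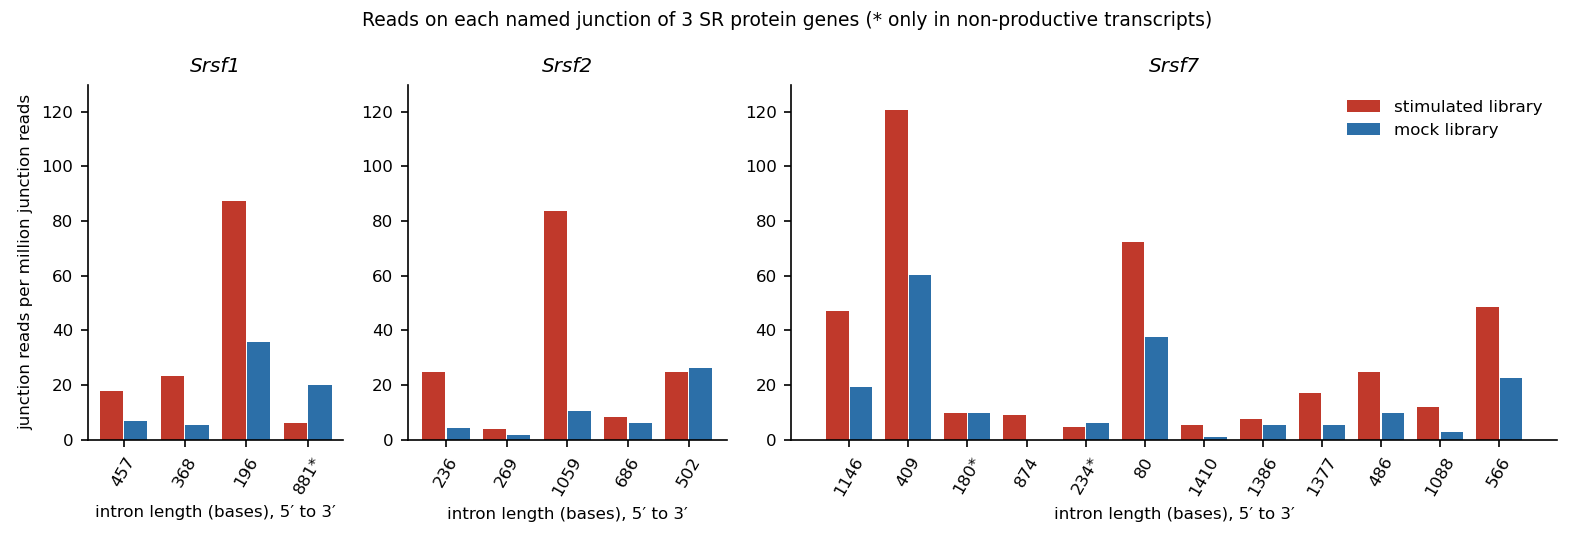
RPM on each named junction of Srsf1, Srsf2 and Srsf7, in order 5′ to 3′ and named by intron length, in the stimulated library (red bars) and the mock library (blue bars). Stars mark junctions found only in non-productive transcripts. The starred 881-base intron of Srsf1 is lower in the stimulated library while its 3 coding junctions are higher. In Srsf2, which has no starred junction, the 502-base intron is nearly level while the 1059-base intron is higher.

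The hnRNP proteins were the most-read group in both libraries. Of 20 genes 17 were measured. Among them 7 were higher, beside 17.3% of all measured genes, and none was lower, beside 25.2%. The median log2 ratio was 0.82. Hnrnpa0, with no annotated coding intron, and Hnrnpa3, with a copy for 11 of its 12 coding introns, had no named junction. No level follows for them. Hnrnph2 had 0 reads in the stimulated library and 5 in the mock library. The group had 11924 reads in the stimulated library and 6362 in the mock library.

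Hnrnpu, a scaffold protein that binds RNA and chromatin, had the most reads of the group in the stimulated library. It rose to 2486 reads (1854 RPM) in the stimulated library, against 882 (769 RPM) in the mock library, a ratio of 2.41 (2.23 to 2.61). Of 15 junctions with at least 10 reads 12 had a ratio above 1, and the 3 below 1 include both of its non-productive junctions with at least 10 reads. Those junctions had 15 reads in the stimulated library and 22 in the mock library, 0.603% of the gene's reads in the stimulated library and 2.49% in the mock library.

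Hnrnpm, Hnrnpab and Hnrnpc rose alike. Hnrnpm, an intronic splicing regulator, had 868 reads in the stimulated library and 335 in the mock library, a ratio of 2.22 (1.95 to 2.52), with all 13 of its junctions with at least 10 reads above 1. Hnrnpab, a single-stranded nucleic acid binding protein, had 822 reads in the stimulated library and 261 in the mock library, a ratio of 2.69 (2.34 to 3.11). Hnrnpc, which binds uridine tracts, had 617 reads in the stimulated library and 200 in the mock library, a ratio of 2.64 (2.25 to 3.11). The rise of Hnrnpc was uneven. Its most-read junction, 94 bases long, had 184 reads in the stimulated library and 125 in the mock library, a ratio of 1.26 and not called. Another of 197 bases had 135 reads in the stimulated library and 13 in the mock library, a ratio of 8.88. Of the 17 coding introns of Hnrnpc 6 had a copy elsewhere, and the most-read junction is among the copied ones. Without copied junctions the log2 ratio of the gene was 2.29, against 1.40 with them.

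Hnrnpll, the regulator of Cd45 exon skipping, rose to 285 reads in the stimulated library, against 116 in the mock library, a ratio of 2.10 (1.69 to 2.63). All 10 of its junctions with at least 10 reads had a ratio above 1, and 4 reached 2. Its paralogue Hnrnpl, which represses exons through CA-rich sites, had 669 reads in the stimulated library and 597 in the mock library, a ratio of 0.959 (0.857 to 1.07). The Hnrnpl poison exon printed above was included at 18.5% (10.8 to 28.7) in the stimulated library and 18.3% (10.6 to 28.4) in the mock library.

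The calls of Hnrnpa1 and Hnrnpk are uncertain. Hnrnpa1, an antagonist of SR proteins at silencers, had 218 reads in the stimulated library and 47 in the mock library, a ratio of 3.97 (2.88 to 5.56), the highest of the group. Of these, 212 reads in the stimulated library and 45 in the mock library lay on 1 junction of 123 bases that starts 90 bases after the stop codon and is annotated only in a decay transcript; 10 of its 12 coding introns had a copy. Hnrnpk, a poly(C) binding protein, had 31 reads in the stimulated library and 12 in the mock library, a ratio of 2.21 (1.10 to 4.72), with 14 of 28 coding introns copied. With the interval widened by the spread between junctions it was no longer called.

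The remaining hnRNP genes were not called. Hnrnpa2b1, a reader of RNA sorting signals, had 2341 reads in the stimulated library and 1136 in the mock library, a ratio of 1.76 (1.64 to 1.89). Hnrnpr lay at the limit with 88 reads in the stimulated library and 38 in the mock library, a ratio of 1.98 (1.34 to 2.98). The lowest ratio of the group was that of Hnrnpul1, with 446 reads in the stimulated library and 556 in the mock library, 0.686 (0.604 to 0.779).

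Hnrnpd changed in exon use. This protein, also called AUF1, binds AU-rich elements and controls decay of cytokine and other mRNAs, and it is made in 4 protein forms through 2 cassette exons. Both exons, of 147 and 57 bases, are shown because their junctions were read on every side.
Hnrnpd, exon of 147 bases, chr5:100392750-100392896, minus strand: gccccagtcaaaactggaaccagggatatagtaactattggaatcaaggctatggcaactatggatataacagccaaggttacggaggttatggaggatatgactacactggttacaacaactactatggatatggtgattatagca
Hnrnpd, exon of 57 bases, chr5:100405553-100405609, minus strand: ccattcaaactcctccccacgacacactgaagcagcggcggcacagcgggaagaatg

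The exon of 147 bases had 47 reads on its upstream and 52 on its downstream junction and 80 skipping reads in the stimulated library. In the mock library it had 71 and 32 inclusion reads and 23 skipping reads. Its inclusion fell to 38.5% (30.1 to 47.4) in the stimulated library, against 69.3% (57.6 to 79.5) in the mock library, 30.9 points lower. Inclusion of the exon of 57 bases was 67.9% (58.3 to 76.5) in the stimulated library and 60.7% (40.6 to 78.5) in the mock library, with intervals that overlap. Reads of the gene as a whole had a ratio of 1.72 (1.53 to 1.95), with 807 reads in the stimulated library and 401 in the mock library. An intron of 1181 bases that starts 30 bases after the stop codon had 28 reads in the stimulated library and 0 in the mock library.

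Of 142 cassette events of the splicing-factor genes with any reads, an event being an annotated exon with a given pair of neighbours, 60 in 24 genes were measured, and 3 differed by at least 10 points with intervals that do not overlap. Inclusion rose in 2, beside 0.217% of 1383 cassette exons of all genes, and fell in 1, the Hnrnpd exon, beside 0.723%. All 3 were among the 32 measured exons with coding junctions on every side, beside 0.377% of such exons of all genes that rose and 0.881% that fell. Of 15 poison exon events with enough reads, 3 in Srsf3 and Tra2b could not be read, since the skipping junction had a copy and no reads. None of the other 12 was counted in either direction, where 1.97% of 152 poison exon events of all genes fell, nor was any of 10 measured exons whose skipping is non-productive. The interval of the Rbm39 poison exon overlapped between libraries, at 45.9% (33.1 to 59.2) in the stimulated library and 68.6% (50.7 to 83.1) in the mock library. For the Hnrnpd exon the downstream junction alone gave a difference of -18.8 points, no longer counted.

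**Figure D5:**
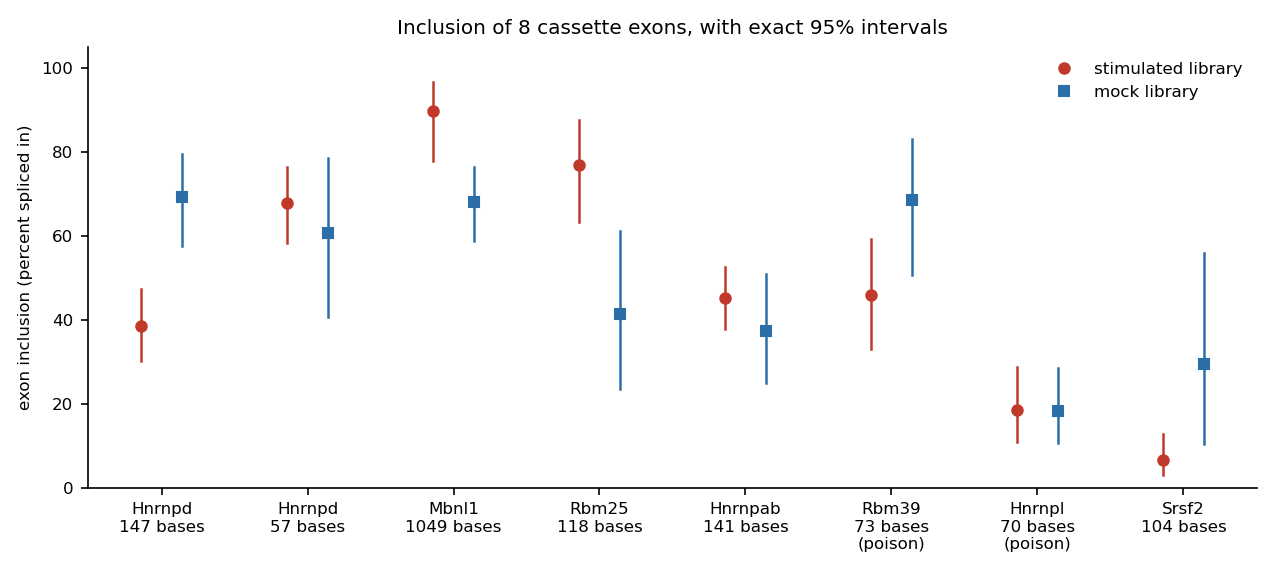
Inclusion, as percent spliced in, of 8 cassette exons in the stimulated library (red circles) and the mock library (blue squares), with exact 95% intervals as vertical lines. The intervals are apart for the 147-base exon of Hnrnpd (38.5% against 69.3%), the 1049-base exon of Mbnl1 (89.8% against 68.1%) and the 118-base exon of Rbm25 (76.9% against 41.4%), and overlap for the other 5.

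The Ptbp, Mbnl and Celf regulators were the group with the lowest median. Of 12 genes 8 were measured, Celf3, Celf4, Celf5 and Celf6 having no named junction. None was higher, beside 17.3% of all measured genes, and 1 was lower, beside 25.2%. The median log2 ratio was -0.44. Celf2, which regulates exons and RNA stability in lymphocytes, fell to 162 reads (121 RPM) in the stimulated library, against 316 (275 RPM) in the mock library, 2.28-fold lower (1.88 to 2.77). Of 11 junctions with at least 10 reads 10 had a ratio below 1. An intron of 1366 bases after its stop codon had 3 reads in the stimulated library and 31 in the mock library. With TMM scaling its log2 ratio was -0.95, and Celf2 was no longer called.

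Mbnl1, a regulator that binds YGCY motifs, had the most reads of the group, 888 in the stimulated library and 1324 in the mock library, a ratio of 0.574 (0.526 to 0.625). Ptbp3 had 403 reads in the stimulated library and 565 in the mock library, a ratio of 0.610 (0.536 to 0.695), and Mbnl2 44 reads in the stimulated library and 62 in the mock library, a ratio of 0.607 (0.403 to 0.908). These 3 intervals lie below 1, but the ratios miss the 2-fold limit. Ptbp1, the polypyrimidine tract binding repressor, had the highest ratio, 1.61 (1.44 to 1.81), with 867 reads in the stimulated library and 461 in the mock library, and 12 of its 18 coding introns had a copy.

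Mbnl1 also changed at its 5′ end. Its 1049-base exon (chr3:60332678-60333726, plus strand) was counted against skipping from the 5′ site at 60277096. Inclusion was 89.8% (77.8 to 96.6) in the stimulated library and 68.1% (58.8 to 76.4) in the mock library. Measured from the 5′ site at 60305346 the same exon was included at 37.8% (29.6 to 46.5) in the stimulated library. In the mock library that inclusion was 47.5% (39.6 to 55.5), with intervals that overlap. At the shared 3′ site downstream, the junction of 122420 bases from 60277096 took 2.89% of 173 reads in the stimulated library and 13.9% of 267 in the mock library. The junction of 94170 bases from 60305346 took 48.6% of those reads in the stimulated library and 31.5% in the mock library. All of these upstream junctions lie before the start codon. On the upstream inclusion junction alone the difference for the exon was 32.9 points and no longer counted.

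A comparison of splice sites shared by at least 2 named junctions was added after the data had been seen. It tested 76 sites of the splicing-factor genes with at least 20 reads per library, and 7 in 6 genes had a junction whose share differed by at least 10 points with intervals that do not overlap, beside 3.75% of 1201 sites of all genes. They lie in Hnrnpd, Rbm25, Mbnl1, Hnrnpu, Srsf5 and Ptbp1. In Srsf5 the longest of 3 introns before the start codon, 907 bases, took 76.7% (70.8 to 81.9) of 240 reads in the stimulated library and 57.6% (48.2 to 66.7) of 118 in the mock library. In Ptbp1 the junction that skips a 78-base exon took 57.1% (49.5 to 64.6) of 175 reads in the stimulated library and 38.5% (29.4 to 48.3) of 109 in the mock library, but that junction has a copy.

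The SF3a and SF3b subunits, which hold the U2 particle at the branch point, moved apart from one another. Of 9 genes 7 were measured, and the median log2 ratio was 0.63. None was called, beside 17.3% of all measured genes called higher and 25.2% called lower. Sf3b4, with a copy for all 5 of its coding introns, and Sf3b5, with no annotated coding intron, had no named junction. No level follows for them. Sf3b3 came closest, with 1365 reads (1018 RPM) in the stimulated library and 599 (522 RPM) in the mock library, a ratio of 1.95 (1.77 to 2.15), and all 23 of its junctions with at least 10 reads had a ratio above 1. Sf3b6, the subunit that contacts the branch point adenosine, had 475 reads in the stimulated library and 226 in the mock library, a ratio of 1.80 (1.53 to 2.12). The SF3a subunits Sf3a1, Sf3a2 and Sf3a3 had ratios of 1.61, 1.55 and 1.29.

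Sf3b1, the large scaffold subunit, was the most-read gene of the whole set and had the lowest ratio of its group. It had 2235 reads (1666 RPM) in the stimulated library and 2899 (2527 RPM) in the mock library, a ratio of 0.659 (0.624 to 0.697). Of 24 junctions with at least 10 reads 18 had a ratio below 1. Its interval does not overlap that of Sf3b3, a partner in the same complex.

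Among the numbered Rbm proteins, a class defined by RNA recognition motifs and of varied function, 23 of 39 genes were measured. In this group 3 were higher and 1 was lower, both shares below those of all measured genes (17.3% and 25.2%), and the median log2 ratio was 0.31. Rbm19, a nucleolar protein needed for ribosome assembly, had the highest ratio of all 67 genes. It rose to 284 reads (212 RPM) in the stimulated library, against 38 (33.1 RPM) in the mock library, a ratio of 6.39 (4.55 to 9.22). All 23 of its annotated coding introns were seen, and its 17 junctions with at least 10 reads all had a ratio above 1, 7 of them having no mock reads. None of its introns had a copy.

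Rbm34 and Rbm4 rose on fewer reads. Rbm34, whose yeast relative Nop12 acts in ribosome assembly, had 83 reads in the stimulated library and 32 in the mock library, a ratio of 2.22 (1.46 to 3.45). Its most-read junction alone gave a log2 ratio of 0.32 and no call. Rbm4, a regulator of alternative exons, had 58 reads in the stimulated library and 23 in the mock library, a ratio of 2.16 (1.31 to 3.66), and without its most-read junction its log2 ratio was 0.73 and not called. Rbm28, whose yeast relative Nop4 is a ribosome assembly factor, had 314 reads in the stimulated library and 155 in the mock library, a ratio of 1.73 (1.43 to 2.11), with all 18 of its junctions with at least 10 reads above 1.

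Rbm33 had the lowest ratio of all 67 genes. It fell to 136 reads (101 RPM) in the stimulated library, against 358 (312 RPM) in the mock library, 3.08-fold lower (2.52 to 3.78). All 15 of its junctions with at least 10 reads had a ratio below 1. Rbm5, a tumour suppressor that acts on exons of apoptosis genes, had 637 reads in the stimulated library and 942 in the mock library, a ratio of 0.578 (0.522 to 0.640), which misses the limit. Its non-productive junctions fell to 15 reads in the stimulated library, against 28 in the mock library, 2.18-fold lower. That is a ratio of 0.458 (0.227 to 0.888), an interval that includes the ratio of the gene. The non-productive share was 2.35% in the stimulated library and 2.97% in the mock library, a difference not counted.

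Rbm39, a U2AF-related factor with many alternative exons, was the most-read Rbm gene, with 1412 reads in the stimulated library and 1241 in the mock library, a ratio of 0.973 (0.901 to 1.05). Its non-productive reads were level too, 108 in the stimulated library and 91 in the mock library, a ratio of 1.02 (0.761 to 1.36). Rbm25, which regulates Bcl-x splicing in human cells, had 1062 reads in the stimulated library and 699 in the mock library, a ratio of 1.30 (1.18 to 1.43). Its 118-base exon near the 5′ end (chr12:84983352-84983469, plus strand) rose in inclusion to 76.9% (63.2 to 87.5) in the stimulated library, against 41.4% (23.5 to 61.1) in the mock library. The inclusion junctions had 28 and 52 reads and the skipping junction 12 in the stimulated library, against 4, 19 and 17 in the mock library. On the downstream junction alone the difference was 28.5 points, no longer counted. Measured from a 5′ site further upstream, the skipping junction had 47 reads in the stimulated library and 57 in the mock library. There the same exon was included at 35.6% (24.7 to 47.7) in the stimulated library and 14.9% (7.40 to 25.7) in the mock library. Those intervals overlap, and the upstream inclusion junction from that site had 0 reads in both libraries.

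Rbm10, a repressor of weak exons, had 16 reads in the stimulated library and 5 in the mock library, a ratio of 2.74 with an interval that includes 1 (0.958 to 9.55), and 21 of its 26 coding introns had a copy. The other Rbm genes with a named junction were called neither way or lay below the minimum. Rbm14, Rbm43, Rbm47 and Rbm48 had between 0.746 and 5.22 RPM in the stimulated library and between 1.74 and 7.84 in the mock library. No junction was named for Rbm11, Rbm12, Rbm12b1, Rbm12b2, Rbm15, Rbm15b, Rbm20, Rbm24, Rbm31y, Rbm44, Rbm46 and Rbm8a2. A gene with fewer than 2 introns cannot be named by the spacing of its junctions, so no level follows for genes such as Rbm15 and Rbm15b. Rbm12b1 and Rbm12b2 had a copy for all 3 of their coding introns, and no level follows for them either.

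Other genes of the splicing pathway were counted from fixed lists, to be read beside the 17.3% of all measured genes that were higher, the 25.2% that were lower and their median log2 ratio of -0.20. Of 19 measured U1, U2AF and Sm protein genes 7 rose and none fell, the median log2 ratio being 0.75; Snrpa1, a U2 particle protein, had 244 reads in the stimulated library and 48 in the mock library, and U2af2, which binds the polypyrimidine tract, had 224 in the stimulated library and 59 in the mock library. Of 31 measured genes of the U4/U6.U5 particle and the Prp19 complex 11 rose and none fell (median log2 ratio 0.33). Of 19 measured genes of the second step and the exon junction complex 3 rose, a share near that of all genes, and none fell (median log2 ratio 0.21).

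Nonsense-mediated decay factors, which degrade the poison-exon transcripts, had a median log2 ratio of -0.21, next to -0.20 for all measured genes. Of 11 measured genes none was higher and 1 was lower; the lower gene, Pnrc2, had 29 reads in the stimulated library and 60 in the mock library. Among 32 measured other splicing regulators 5 were higher, a share near that of all genes, and 2 were lower, with a median log2 ratio of 0.16. The lower ones were Tia1, with 45 reads in the stimulated library and 135 in the mock library, and Cirbp, with 110 in the stimulated library and 234 in the mock library.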

How the data were processed

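The deposited files hold counts: for each splice junction in mm9, the number of reads that span it, used as deposited. The submitters' processing notes name TopHat, Cufflinks and mm9; no source used here gives versions or settings. Mean insert sizes were 199.014 bp for the stimulated and 211.79 bp for the mock library, per the labels' protocols. A junction was named when it had the chromosome, strand and length of an intron of GENCODE M21 (GRCm38) and lay at the annotated distance from at least 1 other such junction of the gene; 77.3% of 124183 junctions were named, 417 that fitted several genes were not used. With chromosomes exchanged as decoys, 52.5 were named on average over 20 rotations. No coordinates were converted.

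A gene's value is the sum of its junction reads per 1000000 junction reads, so long or intron-rich genes collect more and levels are not compared between genes. Ratios carry exact 95% intervals (SciPy 1.17.1, Python 3.11.15); no p-value was computed, since 1 library per condition gives no spread between samples. Percent spliced in used the mean of the 2 inclusion junctions, with at least 20 reads per library. Copies were found with BLAST 2.17.0. The naming was checked on annotated introns moved by a common shift per gene, and the calls on simulated counts with counting error only. Neither check included copied junctions or a wider spread between junctions. The spread between junctions of a gene was 2.02 times the counting variance. Genes given in full are those called, the extremes and most-read of each group, those with a counted difference, those with measured poison exons and regulators known from T cells. The genes, lists, rules and settings were chosen with earlier results of these data known.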

Additional observations from a re-analysis of the deposited data

How the results depend on the processing

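The count of genes higher (16 as reported) was 26 with scaling by the trimmed mean of M values, 26 by the median of ratios, 29 at a ratio of at least 1.5 and 1 at a ratio of at least 4. The count lower (2) was 1, 1, 7 and 0 under these settings, and 4 on the most-read junction alone. Shares over all measured genes were counted only for the 2-fold rule, with RPM and with TMM scaling. The counts under the other settings therefore only describe the splicing-factor genes. The median log2 ratio (0.46) was 0.69 and 0.68 under the scalings. At 100 reads per library no gene had a counted lower or higher non-productive share (0 and 0), because Srsf1 and Tra2b have fewer mock reads. Of 2 exons more included, 1 was counted at 50 reads per library and 0 with the interval widened by the spread between junctions, which left the 1 exon less included counted. Tra2b reversed to a log2 ratio of -0.85 on junctions of protein-coding transcripts; the other 17 called genes showed no opposite sign under any setting that gave a value. Of the 16 higher genes 7 were called under all 10 settings of the gene value: Hnrnpab, Hnrnpll, Hnrnpm, Hnrnpu, Rbm19, Srsf7 and Tra2a; so was Rbm33 of the 2 lower genes. Settings on naming within 1 transcript and on copied junctions were added after the data had been seen. Depth limits low values: 3 reads are 2.24 RPM in the stimulated library and 2.61 RPM in the mock library. No paired analysis was possible because each condition has 1 library.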

Other observations

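Besides the named junctions, 205 junctions of the splicing-factor genes shared a splice site with the annotation without being annotated themselves. They held 331 reads in the stimulated library and 247 in the mock library, and 124 of them rested on 1 read. The most-read was a junction of 2349 bases in Rbm39 (chr2:155996215-155998563, minus strand), with 44 reads in the stimulated library and 30 in the mock library. A junction of 2444 bases in Sf3a2 had 19 reads in the stimulated library and 6 in the mock library, and one of 109 bases in Srsf11 had 21 reads in the stimulated library and 22 in the mock library. In Mbnl1 a junction of 48099 bases had 0 reads in the stimulated library and 10 in the mock library.

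Of the annotated junctions, 13 had at least 10 reads in 1 library and 0 in the other. The share of such junctions over all genes was not counted, so these numbers only describe the splicing-factor genes. The stimulated library held 12 of them, 7 in Rbm19 and 1 each in Hnrnpd, Hnrnpr, Ptbp2, Sf3a1 and Srsf7. The 1 in the mock library was an intron of 234 bases in Ptbp3 (chr4:59498245-59498478, minus strand), with 0 reads in the stimulated library and 47 in the mock library. The introns on either side of it, of 2701 and 2364 bases, had 10 and 54 reads in the stimulated library and 5 and 74 reads in the mock library.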
